A study of Homo sapiens with 6 samples.

Results

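The genes examined were 10 transcriptional outputs and feedback inhibitors of the ERK pathway, DUSP4, DUSP5, DUSP6, SPRY2, SPRY4, ETV4, ETV5, FOSL1, EGR1 and PHLDA1. They were chosen by gene symbol from 28278 genes listed for every library, and all 10 were present and passed the filter on low counts. RNA-Seq was performed on HT29 cells, a human colorectal adenocarcinoma line with epithelial morphology, which is known to carry an activating BRAF mutation. The cells were treated with siRNA targeting ALDOA (siALDOA, labelled as ALDOA knockdown) or with a scrambled siRNA (siControl, labelled as wild type), and 3 biological replicates per treatment were collected after 48 h. Only 1 siALDOA and 1 siControl treatment of a single cell line are labelled, so an effect of the loss of ALDOA and another effect of this siRNA cannot be told apart.

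ERK is the last kinase of the RAS-RAF-MEK-ERK cascade, which carries growth factor signals to the nucleus and is often switched on by mutation in colorectal cancer. Active ERK induces transcription factors within minutes, and it also induces its own brakes. These brakes include phosphatases that dephosphorylate ERK and Sprouty proteins that act upstream of it, so the mRNA levels of such genes are widely used as a readout of the pathway. The phosphorylation of ERK itself is not measured by RNA-Seq.

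The siRNA reduced its target, since ALDOA mRNA was at 283, 305 and 280 CPM (TMM-scaled counts relative to library size) with siALDOA and at 592, 637 and 668 CPM with siControl. The libraries held 27277538 to 33237914 counts on genes. Ribosomal RNA genes took 7.71% to 13.1% of the siALDOA counts and 8.15% to 17.4% of the siControl counts. Of 10 colon epithelium markers, 9 were tested and LGALS4 was listed at 0 in every library. Since the counting annotation is not stated, a gene listed at 0 throughout may be without expression or missed in the counting. The summed level of the list was 8387 to 8622 CPM with siALDOA and 9198 to 9664 CPM with siControl. Most of it came from KRT8, with means of 5093 and 5595 CPM, and from KRT18, with 1910 and 2320 CPM. KRT18 was the only marker with an adjusted p under 0.05 (log2 fold change -0.28, adjusted p = 0.0152), and CEACAM5 was at -0.46 (adjusted p = 0.0516). Of the 9 tested, 8 had negative estimates and 1, EPCAM at 0.13, a positive one, with a median of -0.14. Of 8 blood cell markers CD14 was tested and rose by 0.32 on the log2 scale (adjusted p = 0.0485), while the other 7, PTPRC among them, had at most 11 counts in a library. The summed blood cell list was at 16.5 to 18.1 CPM with siALDOA and 12.9 to 14.5 CPM with siControl. Nearly all of this sum was CD14, at 16.2 to 17.6 CPM with siALDOA and 12.5 to 14.5 CPM with siControl. The 8 fibroblast markers had at most 77 counts and the 5 endothelial markers at most 19 counts in a library. The part of these differences in the results below was not tested. In such bulk samples fewer cells expressing a gene and less RNA per cell cannot be told apart.

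Of the 10 genes, 2 fell with siALDOA, the phosphatase gene DUSP4 and the immediate early gene EGR1, and 0 rose (edgeR's quasi-likelihood test with Benjamini-Hochberg adjustment over 15307 genes, adjusted p < 0.05). At an unadjusted p under 0.05, 3 of the 10 were lower and 2 were higher, beside 1888 lower and 1728 higher of all 15307 genes. DESeq2 and limma-voom each called 2 lower and 0 higher. The number called lower was 0 with library totals only and without siControl replicate 3, and it was 1 when siALDOA replicate 1, 2 or 3 or siControl replicate 2 was left out singly. Over all genes tested 9.66% passed the same threshold, 5.29% as lower and 4.36% as higher, and 12.1% passed among the 11783 genes at 4 CPM or more in mean, a minimum that each of the 10 genes reached and that was set after their levels were seen. A count of 2 in 10 is therefore not far from this background. For 4 of the 10 genes all siALDOA libraries lay on the same side of all siControl libraries, against 27.7% of all genes tested. The log2 fold changes ran from -0.40 to 0.23, 5 of them negative and 5 positive, with a median of 0.0078 beside 0.0016 over all genes tested.

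**Figure D1:**
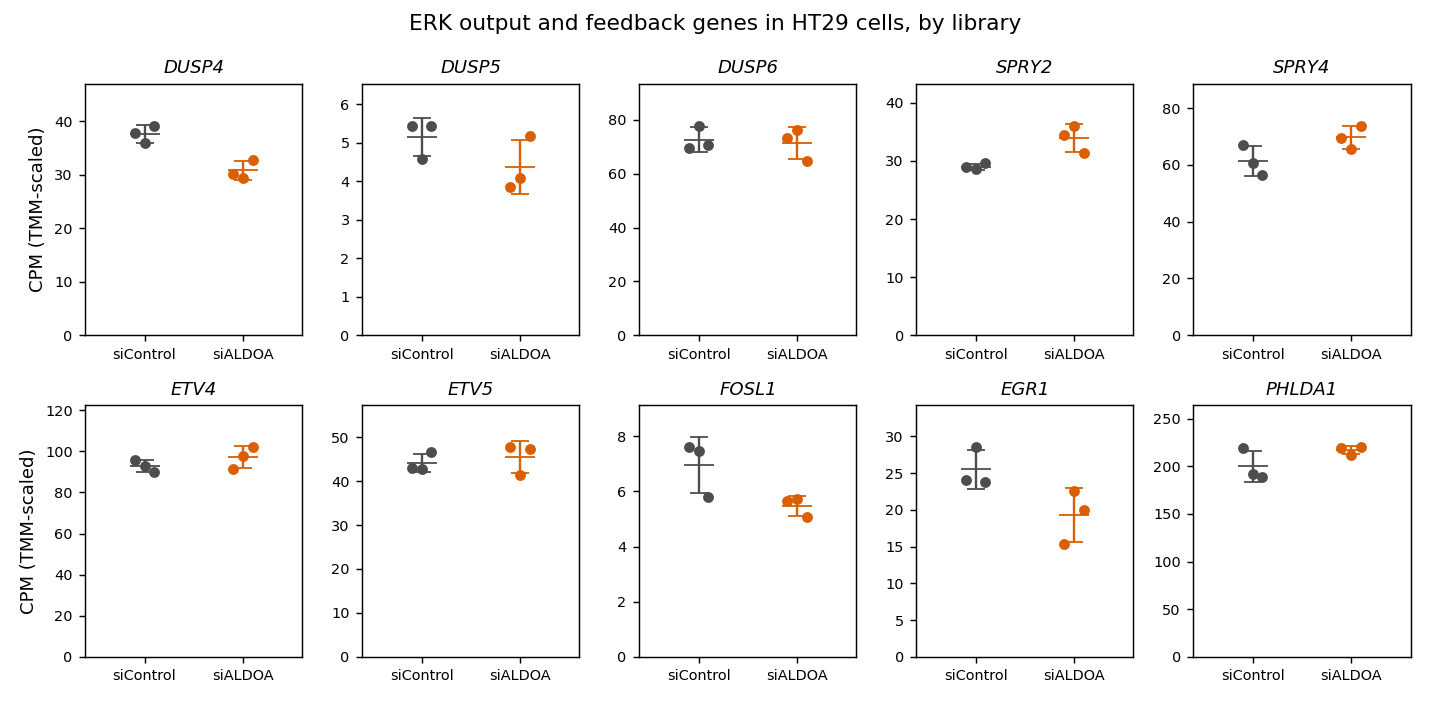
CPM of each of the 10 genes (y axis, TMM-scaled, from 0) in the 3 siControl and 3 siALDOA libraries (points), with the mean (bar) and SD. The points of the groups are apart for DUSP4, FOSL1 and EGR1, which were lower with siALDOA, and for SPRY2, which was higher, and they overlap for the other 6 genes.

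DUSP4, DUSP5 and DUSP6 encode MAPK phosphatases, DUSP4 and DUSP5 in the nucleus and DUSP6 in the cytoplasm. DUSP4 (ENSG00000120875, chromosome 8 of hg38, 29333064 to 29350684) was at 30.1, 29.4 and 32.8 CPM with siALDOA and at 37.8, 35.9 and 39.2 CPM with siControl. Every siALDOA library was below every siControl library. The means were 30.8 ± 1.80 and 37.7 ± 1.69 CPM (SD, n = 3 each), and the log2 fold change of DUSP4 was -0.29 (SE, standard error, 0.0768, adjusted p = 0.0182), or 0.817 times the siControl level. The call was lost without siALDOA replicate 2 (-0.26, adjusted p = 0.0847), without siControl replicate 3 (-0.26, adjusted p = 0.110) and with library totals only (-0.22, adjusted p = 0.170).

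DUSP6, the cytoplasmic phosphatase specific for ERK and a standard marker of pathway output, showed no such difference. Its level was 73.1, 76.1 and 64.8 CPM with siALDOA and 69.6, 77.9 and 70.7 CPM with siControl, and the groups overlapped. The log2 fold change of DUSP6 was -0.027 (SE 0.0709, adjusted p = 0.862). Its 95% interval, from -0.18 to 0.12, corresponds to 0.886 to 1.09 times the siControl level. DUSP5, a nuclear ERK phosphatase, rested on the fewest counts of the 10 genes, from 107 to 179 in a library. Its CPM was 3.84, 4.09 and 5.17 with siALDOA and 5.45, 4.59 and 5.43 with siControl. Only siALDOA replicate 3 reached into the siControl range, and the log2 fold change of DUSP5 of -0.24 (SE 0.176, adjusted p = 0.449) had an interval from -0.61 to 0.13. A change of DUSP5 of the size estimated for DUSP4 lies inside this interval.

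SPRY2 and SPRY4 encode Sprouty proteins, which restrain the signal from growth factor receptors to RAS and RAF. SPRY2 (ENSG00000136158, chromosome 13 of hg38, 80335976 to 80341126) was at 34.4, 36.1 and 31.3 CPM with siALDOA and at 28.9, 28.6 and 29.6 CPM with siControl. All 3 siALDOA libraries lay above all siControl libraries, but the log2 fold change of 0.23 (SE 0.0789) did not pass the threshold (adjusted p = 0.0790), and its adjusted p lay between 0.0507 and 0.265 over 17 alternatives. SPRY4 was at 69.5, 65.8 and 73.9 CPM with siALDOA and at 67.0, 60.8 and 56.6 CPM with siControl, with siALDOA replicate 2 below siControl replicate 1. Its log2 fold change was 0.18 (SE 0.0716, adjusted p = 0.120, 0.0509 to 0.453 over the alternatives). The estimates of both Sprouty genes were thus opposite in sign to that of DUSP4, although DUSP4 and the Sprouty genes are all negative regulators of the same cascade.

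ETV4 and ETV5, ETS transcription factors of the PEA3 group whose transcription follows ERK activity, differed by less than the spread between replicates. ETV4 was at 91.6, 98.0 and 102 CPM with siALDOA and at 95.7, 93.1 and 90.0 CPM with siControl, and its log2 fold change was 0.067 (SE 0.0617, adjusted p = 0.570). ETV5 was at 47.7, 41.3 and 47.4 CPM against 43.0, 42.8 and 46.6 CPM, with a log2 fold change of 0.043 (SE 0.0743, adjusted p = 0.784). The 95% intervals ran from -0.062 to 0.20 for ETV4 and from -0.11 to 0.20 for ETV5, so changes of up to 1.15 times the siControl level lie inside both.

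FOSL1 encodes FRA1, a partner of JUN in the AP-1 factor that is stabilised by ERK. It was at 5.64, 5.72 and 5.07 CPM with siALDOA and at 7.60, 7.47 and 5.80 CPM with siControl. The groups were apart by a narrow margin, between siALDOA replicate 2 and siControl replicate 3. With 144 to 237 counts in a library, the log2 fold change of FOSL1 of -0.34 (SE 0.155) did not pass the threshold (adjusted p = 0.182, 0.125 to 0.399 over the alternatives). PHLDA1, a pleckstrin homology-like protein whose gene is induced by growth factors, was at 219, 212 and 220 CPM with siALDOA and at 219, 192 and 189 CPM with siControl. Its groups overlapped through siControl replicate 1, and the log2 fold change of PHLDA1 was 0.12 (SE 0.0616, adjusted p = 0.265).

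EGR1 encodes a zinc finger factor that is among the first genes transcribed after ERK activation. EGR1 was at 15.3, 22.6 and 20.0 CPM with siALDOA and at 24.0, 28.5 and 23.8 CPM with siControl. The siALDOA libraries were lower, and siALDOA replicate 1 was lowest. The means were 19.3 ± 3.72 and 25.5 ± 2.65 CPM (SD, n = 3 each), and the log2 fold change of EGR1 was -0.40 (SE 0.117, adjusted p = 0.0362), or 0.758 times the siControl level. Without siALDOA replicate 1 the log2 fold change of EGR1 was -0.26 (adjusted p = 0.135). The call was also lost without siControl replicate 2 (-0.31, adjusted p = 0.196) and with library totals only (-0.32, adjusted p = 0.107). It was lost at estimates no smaller than with all libraries without siALDOA replicate 3 (-0.42, adjusted p = 0.0627) and without siControl replicate 3 (-0.44, adjusted p = 0.0547). The biological coefficient of variation of EGR1 in the edgeR fit was 9.56%, above that of 94.7% of the genes within 2-fold of its mean level. With ribosomal RNA genes left out, the log2 fold change of EGR1 was -0.40 and its adjusted p was 0.0321.

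**Figure D2:**
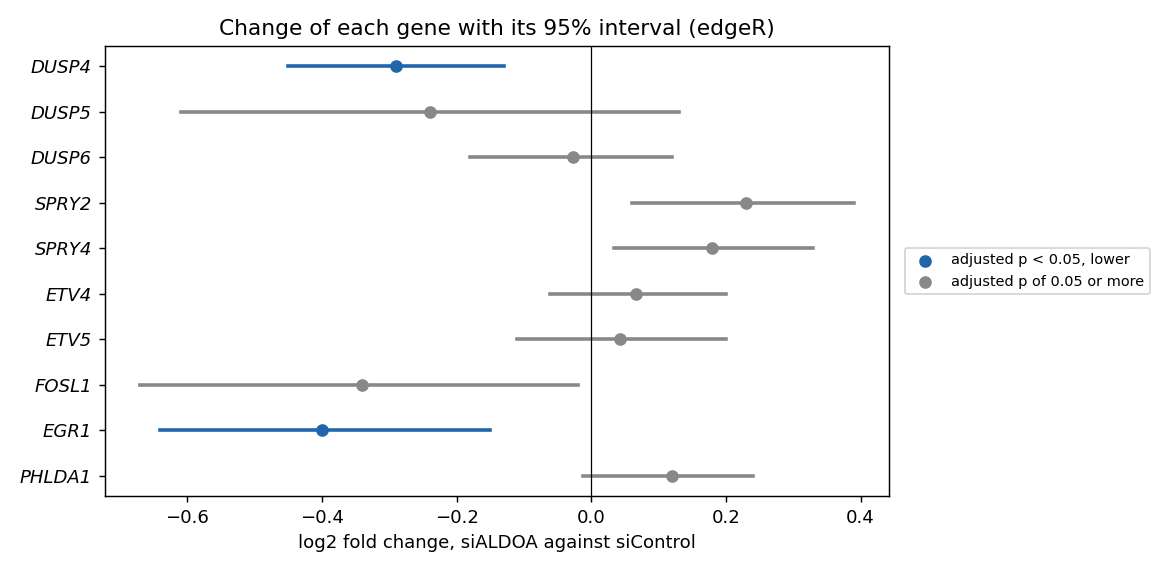
Log2 fold change (x axis, siALDOA against siControl) of each gene (rows) as a point with its 95% interval as a line. DUSP4 and EGR1 (blue, adjusted p < 0.05) lie at -0.29 and -0.40. The intervals of SPRY2 and SPRY4 lie above 0 and that of FOSL1 below 0 without passing the adjusted threshold, and DUSP6, ETV4 and ETV5 lie within 0.1 of 0.

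The promoters of EGR1 and SPRY2 are shown because EGR1 fell, and because both hold a match to a GC-rich pattern searched for EGR1 binding. The EGR1 window holds CArG boxes, the sequence bound by serum response factor, through which growth factors are known to induce EGR1. RefSeq windows on GRCh38.p14, from 250 bases before to 50 bases after a start site, were given for 5 of the 10 genes, DUSP6, SPRY2, SPRY4, EGR1 and PHLDA1. The EGR1 window is chr5:138465229-138465528 on the plus strand, and the SPRY2 window, 1 of 3 listed for this gene, is chr13:80341077-80341376 on the minus strand. Both are written along the gene, with matches in capitals.
EGR1: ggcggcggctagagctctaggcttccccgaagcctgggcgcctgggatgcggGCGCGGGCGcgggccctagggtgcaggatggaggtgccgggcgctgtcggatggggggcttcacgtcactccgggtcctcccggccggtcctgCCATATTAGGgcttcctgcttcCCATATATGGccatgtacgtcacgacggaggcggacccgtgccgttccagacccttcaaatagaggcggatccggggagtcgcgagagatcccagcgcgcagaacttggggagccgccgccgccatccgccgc
SPRY2: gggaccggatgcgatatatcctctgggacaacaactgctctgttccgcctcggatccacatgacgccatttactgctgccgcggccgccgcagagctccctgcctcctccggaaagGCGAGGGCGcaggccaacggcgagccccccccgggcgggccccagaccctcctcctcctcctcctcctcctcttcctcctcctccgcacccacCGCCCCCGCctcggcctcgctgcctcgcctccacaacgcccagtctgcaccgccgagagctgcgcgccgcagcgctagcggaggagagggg
In the EGR1 window the capitals mark 2 CArG boxes, whose first bases lie 105 and 83 bases before the start site. They also mark 1 match to GCGNGGGCG, 198 bases before it. This is the pattern searched for EGR1 binding, in which N is any base, so a match need not be a preferred EGR1 site. A CArG box was found in 1.29% of the 35116 promoter windows of this length. In the SPRY2 window the capitals mark 2 matches to GCGNGGGCG, 134 bases before the start on the gene strand and 41 bases before it on the other strand. SPRY4 held 1 such match and DUSP6 and PHLDA1 none, and 9.43% of all windows hold such a match. None of the 5 genes held a match to TGANTCA (AP-1, 7.71% of windows), CCGGAAG (ETS, 10.3%) or TGACGTCA (CRE, 1.85%) in these windows on either strand. Only these exact patterns were searched, so variants of such sites were not counted. The matches are letters in a window and not sites shown to be bound in HT29 cells.

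Since a ratio of counts of 2 genes in the same library needs no scaling, 7 pairs of the genes, picked after their values were seen, were also described in this way. DUSP4 had 0.876, 0.815 and 1.05 counts per count of SPRY2 with siALDOA and 1.31, 1.25 and 1.33 with siControl. The ratio was lower in every siALDOA library, and as it is not corrected for exon length it does not give the order of the genes. EGR1 over SPRY2 was 0.444, 0.626 and 0.639 with siALDOA against 0.831, 0.997 and 0.806 with siControl. DUSP4 over SPRY4 was 0.433, 0.447 and 0.444 with siALDOA against 0.565, 0.590 and 0.693. EGR1 over DUSP6 was 0.209, 0.297 and 0.309 with siALDOA against 0.345, 0.366 and 0.337 with siControl, and SPRY2 over DUSP6 was 0.470, 0.474 and 0.484 against 0.415, 0.367 and 0.418. These ratios did not overlap between the groups. For DUSP4 and EGR1 over SPRY2 this followed from the levels given above, since the groups of each gene were already apart in opposite directions. No share over other pairs of genes was computed, so the ratios are a description. DUSP4 over DUSP6, with 0.412, 0.386 and 0.507 against 0.544, 0.461 and 0.555, did overlap, through siALDOA replicate 3, and so did EGR1 over FOSL1, with 2.71, 3.95 and 3.95 against 3.16, 3.82 and 4.11.

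Levels were compared between genes as CPM per kb of exon, with exon lengths from GENCODE release 44, as the annotation used for counting is not stated. In siControl PHLDA1 was the highest of the 10 genes at 33.8 CPM per kb, followed by ETV4 at 26.4 and DUSP6 at 18.8, each apart from its neighbours in all 3 libraries. SPRY4, SPRY2, EGR1 and ETV5 formed the middle of the order, from 9.38 down to 7.64 CPM per kb, and each overlapped with the next. DUSP4 at 5.18, FOSL1 at 3.69 and DUSP5 at 2.03 CPM per kb were the lowest and were apart from their neighbours. Among the phosphatases DUSP6 was thus the most abundant in both groups. With siALDOA the means of SPRY2 and EGR1, neighbours that overlapped in siControl, were 10.6 and 6.15 CPM per kb and no longer overlapped, and EGR1 then lay below ETV5 at 7.87 CPM per kb in mean, with overlapping libraries.

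**Figure D3:**
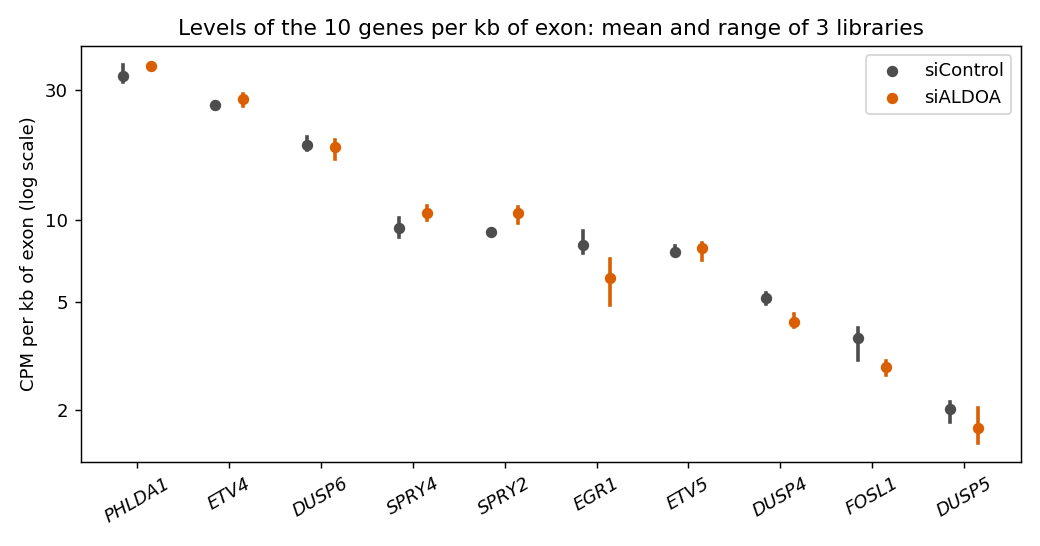
CPM per kb of exon (y axis, log scale) of the 10 genes in the order of their siControl level, with the mean (point) and the range (line) of 3 libraries per group. PHLDA1, ETV4 and DUSP6 stand above the rest, and SPRY4, SPRY2, EGR1 and ETV5 lie close together between 7.41 and 10.2 in siControl.

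The 10 genes showed no common direction of variation among replicates, although single pairs had a high r of either sign. After the group mean was subtracted from log2 CPM, 24 of the 45 pairs of genes had a positive correlation over the 6 libraries. The median r was 0.067, and r ran from -0.95 for DUSP4 with DUSP6 to 0.91 for DUSP4 with DUSP5. These correlations are a description, as the 6 points share their libraries and scaling. The mean deviation of the 10 genes in a library lay between -0.042 in siALDOA replicate 1 and 0.035 in siControl replicate 1, so no library was high or low for all of them. EGR1 had the widest deviations, from -0.32 in siALDOA replicate 1 to 0.25 in siALDOA replicate 2. The 5 genes whose log2 CPM followed DUSP6 most closely, of 10078 genes averaging 10 CPM or more, were NOC3L, PAICS, OGG1, EXD2 and SOD2, with r from 0.9698 to 0.9812 over 6 libraries. DUSP5 and FOSL1 were below this level and could not be among them. The r of the other 9 genes with DUSP6 ran from -0.61 for DUSP5 to 0.44 for FOSL1.

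The rest of the pathway was examined with 4 lists of genes, beginning with the cascade that leads to ERK. Of 26 cascade genes, all tested, 2 fell, 1 rose and 23 did not pass the threshold, with a median log2 fold change of -0.0050. These 3 in 26 are near the 9.66% called over all genes tested, so the genes below are described singly. With the replicate block 3 of the list were called lower and 2 higher, beside 1175 lower and 987 higher of all 15307 genes. NRAS, a RAS GTPase, was at 93.3, 93.2 and 96.1 CPM with siALDOA and at 123, 127 and 130 CPM with siControl, and its log2 fold change was -0.43 (SE 0.0572, adjusted p = 3.57e-05). PTPN11, the phosphatase SHP2 that couples receptors to RAS, fell by 0.24 on the log2 scale (adjusted p = 0.00758). SHC1, an adaptor between receptors and RAS, rose by 0.36 (adjusted p = 8.09e-04), with 184, 205 and 219 CPM against 153, 159 and 161 CPM in siControl. The calls of NRAS and SHC1 were kept under all 17 alternatives. That of PTPN11 was lost with library totals only (adjusted p = 0.214) and without siALDOA replicate 3 (0.0514) or siControl replicate 2 (0.0511). The kinase genes ARAF, BRAF, MAP2K1 and MAPK3 had log2 fold changes of 0.055, -0.020, 0.039 and 0.086, none past the threshold. MAP2K2, which encodes a MEK kinase, was at 88.8, 88.3 and 89.4 CPM with siALDOA and at 77.3, 77.9 and 82.5 CPM with siControl. Its groups were apart, and its log2 fold change of 0.17 did not pass (adjusted p = 0.0890).

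Of 14 other feedback regulators, 12 were tested, and SPRED2, an inhibitor of RAF activation by RAS, was the only gene called, which is near the share over all genes tested (9.66%). SPRED2 fell by 0.27 on the log2 scale (SE 0.0711, adjusted p = 0.0182), from 142 ± 8.77 to 118 ± 12.0 CPM (SD, n = 3 each), a call lost with library totals only (adjusted p = 0.197) and without siALDOA replicate 1 (0.0526), siControl replicate 1 (0.0731) or siControl replicate 3 (0.0870). The number of genes of the list called lower was 3 without siALDOA replicate 3, 2 with the replicate block and with no filter on low counts, and 0 under the 4 settings that lost SPRED2. At an unadjusted p under 0.05, 0 genes of the list were higher and 3 were lower, beside 1728 higher and 1888 lower of all 15307 genes. DESeq2 and limma-voom each called 0 higher and 1 lower. The median of the list was -0.10. DUSP9 and DUSP16 were listed at 0 in every library, with the same limit as LGALS4.

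**Figure D4:**
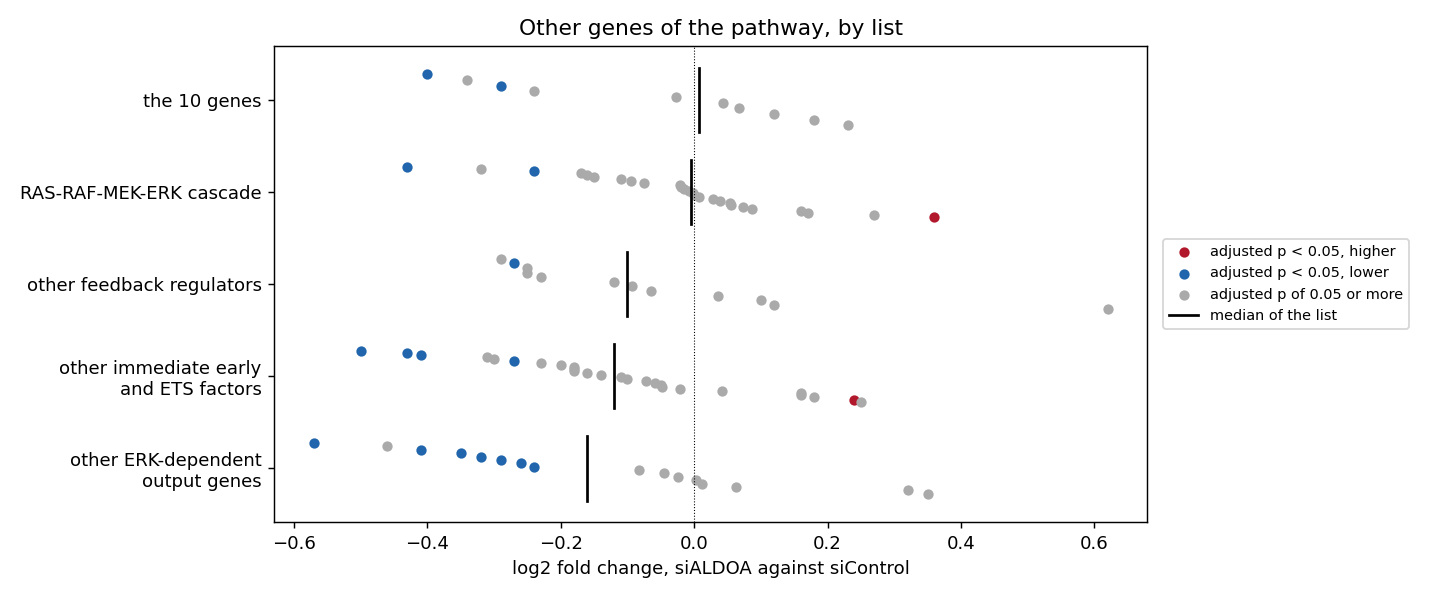
Log2 fold change (x axis, siALDOA against siControl) of every tested gene (points) of the 10 genes and of the 4 other lists (rows), with genes at an adjusted p < 0.05 in blue (lower) or red (higher) and the median of each list as a black line. The medians are 0.0078, -0.0050, -0.10, -0.12 and -0.16 from top to bottom, and 7 blue points stand in the list of other ERK-dependent output genes.

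Of 28 other immediate early and ETS factors, 26 were tested, of which 4 fell, 1 rose and 21 did not pass, with a median of -0.12. Over all genes tested 5.29% fell and 4.36% rose. At an unadjusted p under 0.05, 12 of the list were lower and 3 were higher, beside 1888 lower and 1728 higher of all 15307 genes. With the replicate block 6 of the list were called lower and 2 higher, beside 1175 lower and 987 higher of all 15307 genes. JUND fell by 0.50 (adjusted p = 3.72e-05), JUN by 0.41 (adjusted p = 5.02e-05) and FOSL2 by 0.27 on the log2 scale (adjusted p = 0.00675), and these encode subunits of AP-1, as FOSL1 does. JUN was at 139, 133 and 132 CPM with siALDOA and at 177, 185 and 175 CPM with siControl. JUND was at 81.1, 96.4 and 95.5 CPM against 130, 130 and 126 CPM. The groups of both genes were well apart. Of the other AP-1 genes listed, FOS, FOSB and JUNB had log2 fold changes of -0.20, 0.25 and -0.18 and did not pass. SRF, which encodes the serum response factor that binds CArG boxes, was at 28.7, 36.0 and 34.1 CPM with siALDOA and at 47.3, 41.3 and 44.2 CPM with siControl. SRF fell by 0.43 on the log2 scale (SE 0.0851, adjusted p = 0.00231), a call kept under all 17 alternatives. ELK4, an ETS partner of SRF, rose by 0.24 (adjusted p = 0.0218), a call lost when any of 4 single libraries was left out, with adjusted p from 0.0565 to 0.110. FOSL2 lost its call with library totals only (adjusted p = 0.153).

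Of 17 other output genes, 16 were tested, of which 7 fell and 0 rose, with a median of -0.16. At an unadjusted p under 0.05, 8 were lower and 0 were higher, beside 1888 lower and 1728 higher of all 15307 genes. DESeq2 and limma-voom each called 7 lower and 0 higher. The list was written by hand and is not independent of earlier results of these data, so its share of 7 in 16 beside the 5.29% of all genes is a description. EREG, TGFA and AREG encode ligands of the EGF receptor family, which act upstream of the cascade as well as being induced by it. The authors treat AREG as a typical target of YAP, and the part of YAP in its change was not tested. EREG fell by 0.57 on the log2 scale (adjusted p = 5.02e-05), with 39.5, 44.0 and 41.8 CPM against 55.4, 69.0 and 61.9 CPM in siControl. TGFA fell by 0.32 (adjusted p = 0.00170) and AREG by 0.41 (adjusted p = 0.0105), while the ligand HBEGF had a log2 fold change of -0.46 and did not pass (adjusted p = 0.0658). PHLDA2, a relative of PHLDA1, fell by 0.29 (adjusted p = 0.00137), at 155, 162 and 164 CPM against 194, 197 and 199 CPM. EPHA2, a receptor tyrosine kinase, fell by 0.26 (adjusted p = 0.00568), and the remaining genes that fell were CCND1 and PLAUR. With library totals only, the calls of TGFA, PHLDA2, EPHA2, CCND1 and PLAUR were lost, which left 2 of the 7, and 4 genes of the list were called without siControl replicate 2. CCND1 also lost its call without siControl replicate 2 or 3 (0.0727 and 0.0692), and PLAUR without siALDOA replicate 1 or siControl replicate 2 (0.0519 and 0.0971). AREG lost its call without siALDOA replicate 3, siControl replicate 2 or siControl replicate 3, with adjusted p from 0.0526 to 0.0842.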

How the data were processed

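RNA-Seq counts of 6 HT29 libraries were used, 3 with siALDOA and 3 with siControl. Raw reads were aligned by the authors to hg38 with tophat2, and the deposited files hold whole-number counts per gene symbol from gfold, without normalization. The annotation, the strand setting and the treatment of multi-mapped reads are not given in the sources used here. Without strand information, reads of ETV4 and DHX8, whose exons overlap by 68 bases on opposite strands, of PHLDA1 and PHLDA1-AS1 (553 bases), or of DUSP6 and an unnamed antisense gene (1105 bases) cannot be told apart.

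Counts were filtered with filterByExpr, scaled by TMM and tested with edgeR 4.0.16 (quasi-likelihood F-test, R 4.3.3) across all 15307 genes that passed, with Benjamini-Hochberg adjustment and a threshold of 0.05. No covariate was used. SE was taken as the size of the log2 fold change over the root of F, and log2 CPM used a prior count of 2. DESeq2 1.42.0 and limma 3.58.1 served as alternatives, with other scalings and filters, a block for the replicate number, and fits without each single library. edgeR was tested on simulated data. The 10 genes and the lists were chosen with earlier results of these data known. Exon lengths were unions from GENCODE release 44. The text names the 10 genes, ALDOA, and of each list up to 5 called genes in order of p that averaged 1 CPM or more, or the 2 with the smallest p where none was called. ARAF, BRAF, MAP2K1, MAP2K2, MAPK3, FOS, FOSB, JUNB, HBEGF, CCND1, PLAUR, DUSP9, DUSP16 and the cell type markers were named after their values were seen, and the 5 genes most like DUSP6 were taken by Pearson's r. Replicates are labelled biological, and separate cultures are not described, so p-values measure the spread between these libraries. Figures were drawn with matplotlib 3.10.9.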

Additional observations from a re-analysis of the deposited data

How the results depend on the processing

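Over 17 alternatives the log2 fold changes of 9 of the 10 genes kept their sign, and that of DUSP6 turned positive in 3 of them without passing the threshold. The number of the 10 genes called higher was 0 in each. The number called lower was 2 but for library totals only, which gave 0, and ranged from 0 to 2 when 1 library was left out, with 0 without siControl replicate 3. Over all genes, 668 were called higher and 810 lower. The counts lay between 359 and 644 higher and between 471 and 790 lower when 1 library was left out, with the lowest counts without siControl replicate 2 (359 higher) and siControl replicate 3 (471 lower), and library totals only gave 279 lower and 896 higher. That scaling moved the median log2 fold change of all genes to 0.075. The cause was not tested. The log2 fold change of ALDOA stayed between -1.17 and -1.06. The deviations of same-numbered libraries correlated only weakly (r of 0.026 to 0.035), but each correlated best with its own number, and the main fit did not use the replicate number. The replicate block gave 2 of the 10 genes lower and 0 higher, and 987 higher and 1175 lower over all genes, with an adjusted p of 0.00576 for DUSP4, 0.00235 for EGR1 and 0.0507 for SPRY2. DUSP5 and FOSL1 had the fewest counts of the 10 genes, 107 to 237 in a library, and the widest SE, 0.176 and 0.155; counting error and the spread between replicates were not separated.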
